A study of Homo sapiens with 21 samples.

Results

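The baseline transcriptome of 786-O, a cell line long used as a model of human clear cell renal carcinoma, was described from the RNA libraries whose titles name a wild-type JMJD6 genotype and the control guide sgCtrl. These were 3 of the 9 RNA libraries and 3 of the 21 samples of the series. The series as a whole set JMJD6 knockout cells against such controls and mapped JMJD6 and a promoter histone mark on chromatin. No knockout library entered any value given here. The cells came from Sigma, grew in DMEM with fetal bovine serum and antibiotics, and had been infected with the control guide, so they had also received a guide vector. The treatment text of the labels describes siRNA transfection, whereas the titles and guide labels name a guide and the RNA extraction notes name infection, and these were followed here. The libraries are called triplicates without a statement that they were separate cultures, so the spread between them may be technical. They are called control libraries 1, 2 and 3.

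Most clear cell renal carcinomas lose VHL, the substrate-binding subunit of a ubiquitin ligase that marks the alpha subunits of the hypoxia-inducible factors (HIF) for destruction when oxygen is present. Without it the alpha subunits accumulate, pair with ARNT and switch on genes of glucose uptake, glycolysis, blood vessel growth and lipid storage, and the stored lipid and glycogen give the tumour its clear cells. The 786-O line is known for an inactivated VHL gene and for making HIF-2 alpha, the product of EPAS1, without functional HIF-1 alpha. RNA levels alone cannot show the state of either protein.

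The libraries held 14934066, 15549632 and 14224263 estimated counts (control 1, 2 and 3). Levels are given in TPM, a unit that divides each estimated count by transcript length and scales each library to the same total, so genes can be compared with each other on this scale. A gene was called expressed when its summed TPM was at least 1 in each of the 3 libraries. By this rule 12476 of 26809 named genes (46.5%) and 11636 of 18961 protein-coding genes (61.4%) were expressed. A level of at least 100 TPM in each library was reached by 8.84% of the protein-coding genes. The median mean level of the expressed genes was 23.2 TPM, and 3956 protein-coding genes had no count in any library.

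Transcripts of the actin cytoskeleton, iron storage, glycolysis and translation led the ranking. TMSB10, which encodes the actin-sequestering peptide thymosin beta-10, stood at 10761, 10897 and 8741 TPM in control 1, 2 and 3. It was highest of all named genes in each library, and control 3 lay below the other libraries. MT2A, a metal-binding metallothionein, followed with 7555, 7637 and 7626 TPM. FTL and FTH1, the light and heavy chains of the iron store ferritin, stood at 7518, 7367 and 7887 TPM and at 6838, 6609 and 6909 TPM. Their order changed between libraries, with FTL above MT2A in control 3 only. GAPDH, the glyceraldehyde-3-phosphate dehydrogenase of glycolysis, had 6901, 7215 and 7419.6 TPM. ACTB, cytoplasmic beta-actin, had 6165, 6418 and 7333 TPM. Control 3 was the highest library for both. VIM, the intermediate filament protein vimentin that is typical of clear cell renal carcinoma, was number 9 by mean level, with 5279, 5444 and 5634 TPM. CTSD, the lysosomal protease cathepsin D, reached 5298, 5266 and 5559.8 TPM, and LGALS1, the secreted lectin galectin-1, 5329.6, 5478 and 5158 TPM.

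**Figure D1:**
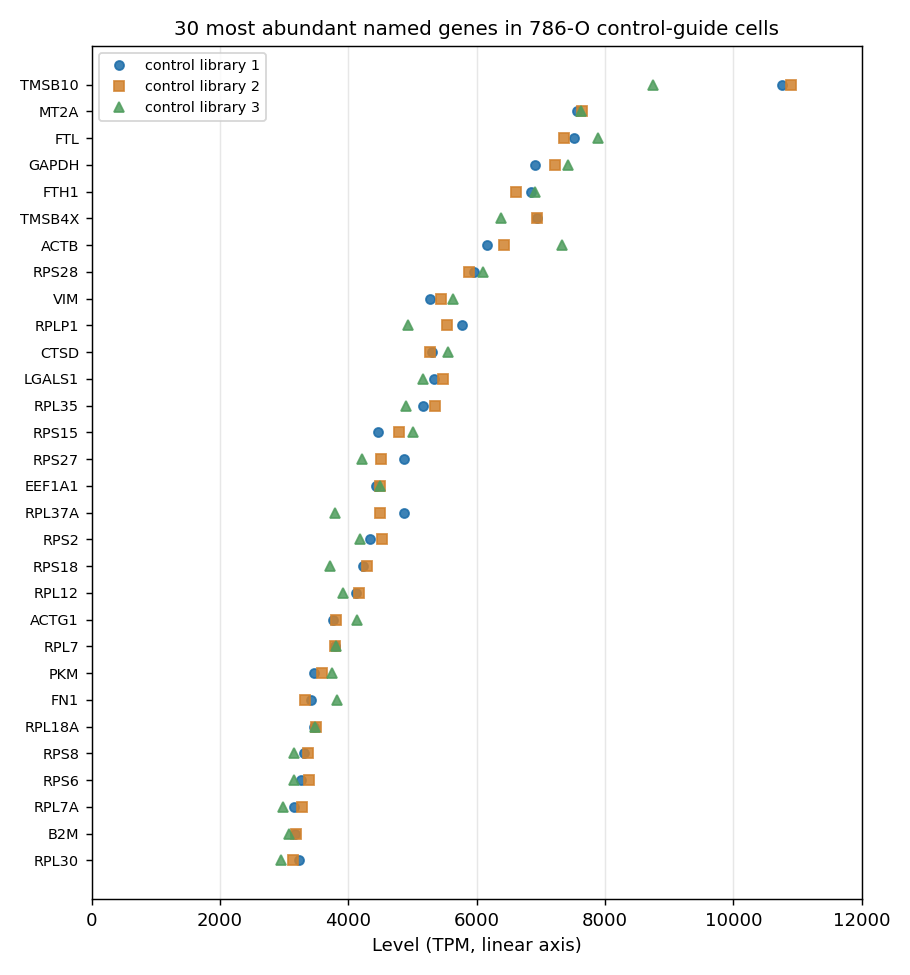
Level of the 30 named genes with the highest mean TPM, on a linear TPM axis, with 1 symbol for each of the 3 control libraries. The symbols of most genes lie close together, while TMSB10 is lower in control 3 (8741 TPM) than in control 1 (10761 TPM) and control 2 (10897 TPM).

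Of the 30 most abundant genes, 15 encode ribosomal proteins. Together 86 measured ribosomal protein genes held 15.3 ± 0.587% of all TPM (SD, n = 3), and 81 of them were expressed. These genes, the actins, GAPDH and the ferritin chains have near-identical copies in the genome, with which they can share reads, so their levels are less certain than others. The rest of the 30 included TMSB4X, ACTG1 and the translation elongation factor EEF1A1. Also among them were the glycolytic enzyme PKM, the matrix protein FN1 (fibronectin) at 3418, 3326 and 3822 TPM, and B2M, the light chain of class I antigen-presenting molecules, at 3160.0, 3178 and 3071 TPM. The 10 most abundant genes held 6.95 ± 0.0517% of the TPM, the top 100 held 28.5 ± 0.463% and the top 1000 held 60.3 ± 0.697% (SD, n = 3). A level of at least 1000 TPM in every library was seen for 123 genes, or 0.459% of the named genes. Among long noncoding RNAs, 645 of 4381 were expressed. The highest was SNHG5, the host transcript of small nucleolar RNAs, with 1007, 889 and 719 TPM, and it was lowest in control 3. VIM-AS1 came next with 749.9, 771 and 799 TPM, but it overlaps VIM and the strand setting of the counting is not given in the sources used here, so reads of VIM cannot be told apart from its own.

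The 4 genes taken as marks of this line were all well above the median expressed gene. PAX8, a transcription factor that specifies the renal lineage and remains on in most renal carcinomas, had 178, 164 and 173 TPM. EPAS1, which encodes HIF-2 alpha, had 213, 217 and 220.3 TPM. CA12, a membrane carbonic anhydrase, had 232, 218 and 262 TPM. With VIM at the level given above, none of the 4 conflicted with the label. JMJD6, the gene that the series knocked out elsewhere and a 2-oxoglutarate-dependent oxygenase of the nucleus, had 32.7, 32.6 and 36.8 TPM in these control-guide cells and ranked above 61.5% of expressed genes.

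Of 15 kidney lineage transcription factors 8 were expressed (53.3%, against 61.4% of protein-coding genes), so the list as a whole was not set apart from the background, and its members differed widely. SALL1, a zinc finger factor of nephron progenitors, had 37.2, 39.0 and 42.3 TPM. PAX2, the close relative of PAX8, had 20.5, 19.5 and 22.5 TPM, and PAX8 held 89.2 ± 0.600% of the TPM of the pair (SD, n = 3). The progenitor factor WT1 stood at 16.3, 16.3 and 15.9 TPM. It shares reads with a readthrough gene that held 106 counts over the 3 libraries. At the other end, HNF4A, a master regulator of proximal tubule and liver cells, had 0 counts in all 3 libraries, which allows a level of up to 0.121 TPM in any of them (3 counts). EMX2, SIX2 and EYA1, factors of the early kidney, also had 0 counts. HNF4G, a relative of HNF4A, was expressed at 11.1, 9.87 and 10.4 TPM.

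Segment markers were uneven along the nephron. Of 25 proximal tubule genes 16 were expressed (64.0%), a share close to the 61.4% of protein-coding genes. Of 14 genes of the loop of Henle, distal tubule and collecting duct 2 were expressed (14.3%), and of 5 podocyte genes 2 (40.0%). FXYD2, the gamma subunit of the sodium pump, led the proximal list with 247, 230.1 and 221 TPM, although a readthrough gene that shares its reads held 285 counts. GGT1, a brush border gamma-glutamyltransferase, had 149, 142 and 157 TPM. HAVCR1, the injury marker KIM-1 of proximal tubules, had 134, 141 and 157 TPM. The brush border peptidase DPP4 had 113, 114 and 128 TPM, and the scaffold PDZK1 62.3, 64.8 and 68.4 TPM. Transporters of the list were uneven. SLC7A7, a light chain of an amino acid exchanger, had 33.1, 34.0 and 36.9 TPM. The glucose transporter SLC5A2 had 4.42, 3.91 and 3.50 TPM, and SLC17A3, SLC16A12, SLC13A3 and SLC3A1 also passed the threshold, with mean levels from 2.03 to 7.46 TPM. The organic anion transporters SLC22A6 and SLC22A8 had 0 counts. LRP2, the endocytic receptor megalin, had 2, 1 and 2 counts, and its partner CUBN had 19, 31 and 7. In the distal list, 9 genes had 0 counts, among them UMOD (uromodulin), the water channel AQP2 and the salt transporter SLC12A1. Only the sodium channel subunit SCNN1A, with 4.83, 6.04 and 6.57 TPM, and the water channel AQP3, with 1.63, 1.87 and 1.90 TPM, passed the threshold. The podocyte genes expressed were SYNPO, the actin-associated protein synaptopodin, with 449, 429 and 436 TPM, and PODXL (podocalyxin) with 12.5, 11.1 and 12.1 TPM. The slit diaphragm gene NPHS1 had 1 count over the 3 libraries.

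Of 21 mesenchymal genes 18 were expressed (85.7%), and of 14 epithelial genes 9 (64.3%), a share close to the 61.4% of protein-coding genes. The difference between the lists was not tested. After VIM and FN1, the extracellular matrix protein TGFBI had 1449, 1426 and 1634 TPM and the integrin subunit ITGB1 922, 950.1 and 957 TPM. CDH2 (N-cadherin), a cell adhesion molecule that proximal tubule cells also carry, had 146, 157 and 159 TPM and held 69.2 ± 1.03% of the TPM of 5 cadherins. CDH6, the cadherin of nephron precursors, held 21.7 ± 1.39%. CDH1 (E-cadherin) had 7, 12 and 3 counts. Of the transcription factors that repress it, SNAI2 had 44.4, 49.0 and 55.6 TPM and ZEB1 11.3, 11.1 and 11.1 TPM, while TWIST1 and TWIST2 had 0 counts. The simple-epithelial keratins KRT8, KRT18 and KRT19 were nonetheless abundant, whereas KRT7, the other keratin of the list, was close to the threshold. KRT7 had 1.10, 1.05 and 1.09 TPM. KRT8 had 605, 629.7 and 632 TPM and KRT18, its filament partner, 234, 231 and 215 TPM. KRT19 had 317, 344 and 363 TPM. The surface glycoprotein CD24 stood at 388, 438 and 444 TPM, and the tight junction protein CLDN1 at 123, 110.4 and 109.8 TPM. The epithelial splicing regulators ESRP1 and ESRP2 held 2 and 113 counts in all, and GRHL2, a keeper of epithelial identity, held 3.

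Of 19 measured genes that are known to be high in clear cell renal carcinoma, 16 were expressed (84.2%, against 61.4% of protein-coding genes) and 9 reached 100 TPM in each library (against 8.84% of protein-coding genes). CD70, the ligand of the lymphocyte receptor CD27, was highest with 1001, 1049 and 1019.9 TPM. CAV1 (caveolin-1) had 401, 418 and 430.1 TPM, the hepatocyte growth factor receptor MET 303, 308 and 339 TPM, and SCARB1, a receptor for high-density lipoprotein, 236, 237 and 251 TPM. The metabolic enzyme NNMT had 215, 229 and 202 TPM and the receptor tyrosine kinase AXL 189, 189 and 183 TPM. The members of this list that were not expressed were CXCR4, a chemokine receptor, with 5 counts over the 3 libraries, FABP7 with 3 and NPTX2 with 2. NDUFA4L2 was not analysed here.

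**Figure D2:**
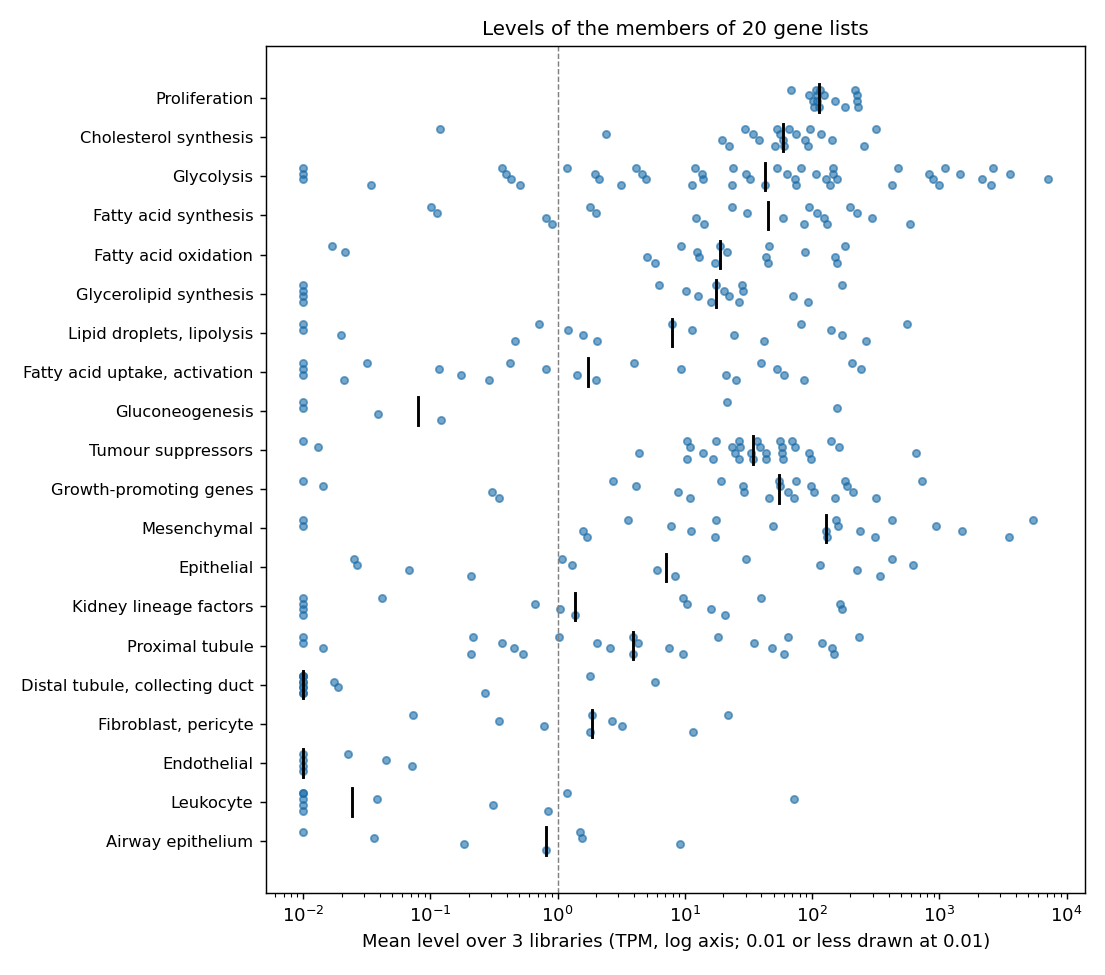
Mean level over the 3 control libraries of each member of 20 gene lists, on a log TPM axis on which levels of 0.01 TPM or less are drawn at 0.01. Each point is a gene, the black bar is the list's median and the dashed line is 1 TPM. All 16 proliferation genes lie right of the line, against 2 of 14 distal tubule and collecting duct genes and 0 of 7 endothelial genes.

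In the oxygen-sensing list 16 of 17 genes were expressed (94.1%, against 61.4% of protein-coding genes). EPAS1 was the leading HIF alpha gene and held 85.9 ± 1.35% of the TPM of EPAS1, HIF1A and HIF3A (SD, n = 3). HIF1A had 32.5, 33.7 and 41.0 TPM, so EPAS1 was between 5.38 and 6.56 times higher within a library, and control 3 had the highest HIF1A level. HIF3A had 0 counts. VHL transcripts were present at 27.4, 26.4 and 27.5 TPM, above 54.6% of expressed genes, which says nothing about the protein they encode. ARNT, the shared beta subunit, had 21.8, 18.7 and 21.7 TPM and its paralogue ARNT2 4.52, 4.89 and 5.91 TPM. Among the prolyl hydroxylases that tag HIF alpha for VHL, EGLN3, itself a HIF target, held 66.4 ± 1.15% of the family with 122, 131 and 127 TPM. EGLN2 held 19.0 ± 1.48% and EGLN1 14.6 ± 0.677%. EGLN2 shares reads with a readthrough gene of 823 counts. CITED2, a HIF-induced protein that competes with HIF for its coactivators, was the most abundant member with 517, 505 and 521 TPM. The coactivators EP300 and CREBBP stood at 24.8, 26.3 and 32.3 TPM and 31.4, 31.9 and 36.6 TPM. Both were highest in control 3.

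Of 25 measured genes that HIF-2 can drive, 22 were expressed (88.0%, against 61.4% of protein-coding genes) and 14 reached 100 TPM in each library (against 8.84% of protein-coding genes). Their median level, 237 TPM, was that of CA12. The stress-responsive gene NDRG1 was highest with 2044, 1866 and 1927 TPM. SLC7A5, the large neutral amino acid transporter, had 1068, 1116 and 1107 TPM. The glucose transporter SLC2A1 had 915, 899 and 855 TPM and was lowest in control 3. All 3 were far above the list's median. Secreted growth regulators formed the next tier. VEGFA, the principal growth factor of blood vessels, had 768, 674 and 702 TPM. IGFBP3, a carrier of insulin-like growth factors, had 735, 726 and 763 TPM. TGFA, a ligand of the EGF receptor, had 568, 537 and 572 TPM. Of these, VEGFA was highest in control 1. CCND1 (cyclin D1), a cell cycle regulator that HIF-2 induces in renal carcinoma, stood at 730.2, 689 and 772 TPM. The lipid droplet coat protein PLIN2 had 557, 529 and 574 TPM. Coefficients of variation over the 3 libraries ran, among the expressed members, from 0.388% for STC2 to 19.4% for PTHLH. EPO (erythropoietin) and FLT1, a VEGF receptor, had 0 counts, and CXCR4 is given above.

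Of 16 genes tied mainly to HIF-1, 15 were expressed (93.8%, against 61.4% of protein-coding genes). In each library 7 reached 100 TPM (against 8.84% of protein-coding genes). The median of the list was 29.8 TPM. Glycolytic enzymes that most growing cells use held the top places. ALDOA (aldolase A) had 2578, 2674 and 2725 TPM, ENO1 (enolase 1) 2471, 2595 and 2636 TPM and LDHA (lactate dehydrogenase A) 2067, 2162 and 2231 TPM. PGK1 (phosphoglycerate kinase 1) had 430.2, 423 and 429 TPM, and the mitophagy protein BNIP3 160.0, 169.6 and 165 TPM. Each of these differed little between libraries. CA9, the membrane carbonic anhydrase that is a classical HIF-1 target and tumour marker, was near the threshold with 1.43, 1.27 and 1.77 TPM from 14, 13 and 16 counts. CA12, its relative in the HIF-2 list, was from 148 to 172 times higher within a library. ANKRD37 was the 1 member below the threshold, with 0.797, 2.47 and 1.29 TPM from 4, 13 and 6 counts. PDK1, a kinase that restrains pyruvate entry into mitochondria, had 12.6, 13.8 and 14.3 TPM.

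**Figure D3:**
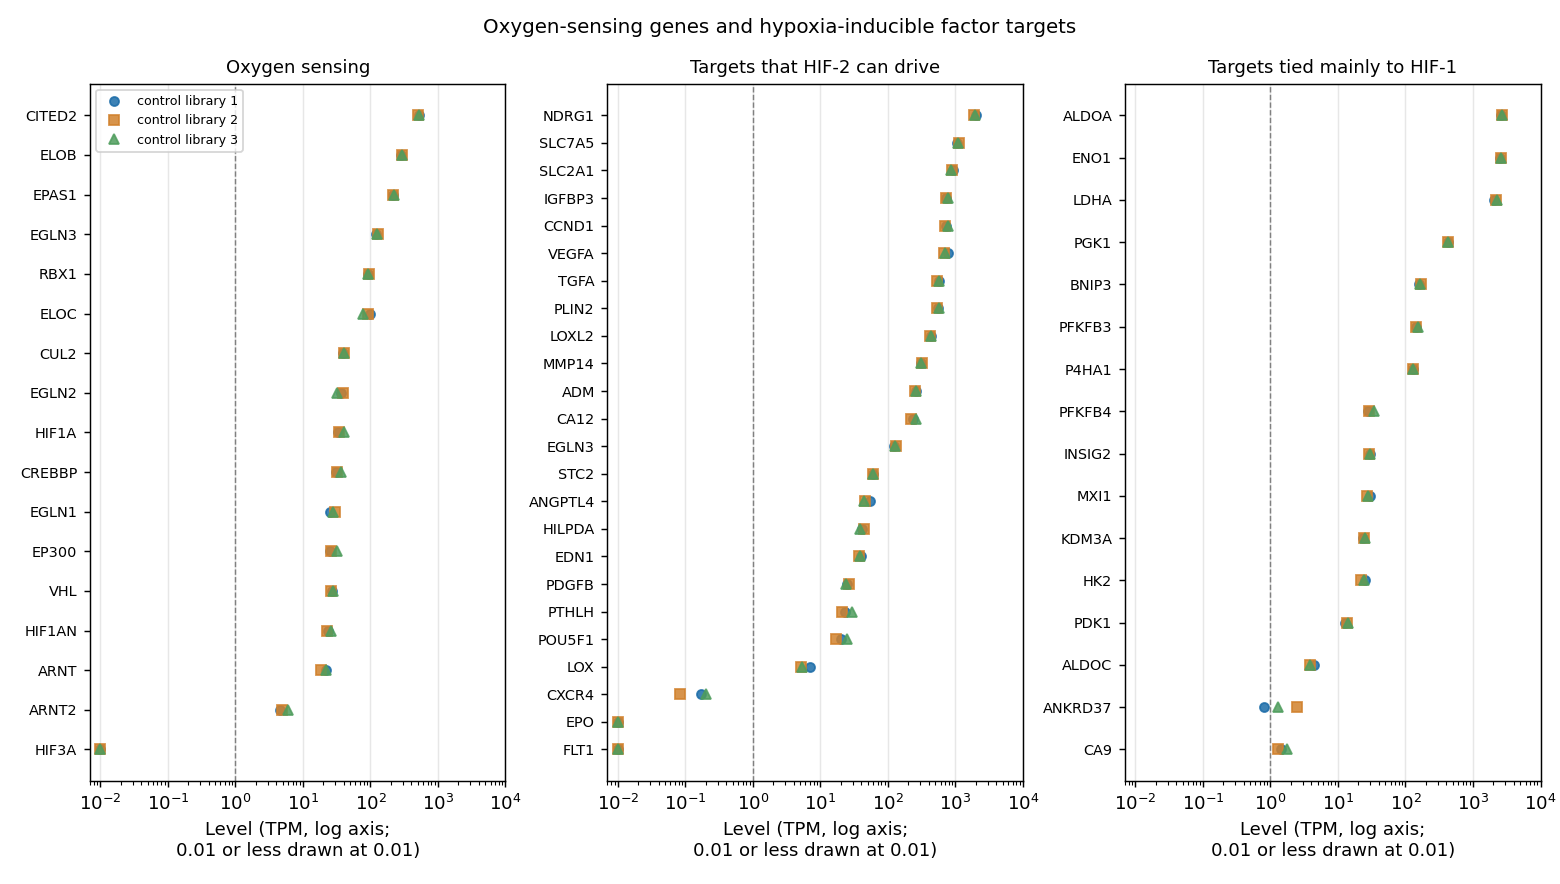
Levels of oxygen-sensing genes, of targets that HIF-2 can drive and of targets tied mainly to HIF-1, on log TPM axes on which 0.01 TPM or less is drawn at 0.01. Each symbol is 1 control library and the dashed line is 1 TPM. EPAS1 lies right of HIF1A, most of the HIF-2 genes drawn lie above 100 TPM, and CA9 lies close to 1 TPM.

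HIF binds DNA at a short core, which was searched here as ACGTG on either strand (CACGT read on the other). The search covered the 250 bases before each RefSeq transcription start (assembly GRCh38.p14), with a gene counted when any of its windows held the core. The palindrome CACGTG, the E-box of other factors, contains the core on both strands and is counted here too. The following windows are shown because CA12 and CA9 differed widely in level and because PLIN2, PGK1 and LDHA are abundant targets. They run 5′ to 3′ on the gene's strand, with the core in capitals.
CA12, chr15:63381847-63382096, minus strand: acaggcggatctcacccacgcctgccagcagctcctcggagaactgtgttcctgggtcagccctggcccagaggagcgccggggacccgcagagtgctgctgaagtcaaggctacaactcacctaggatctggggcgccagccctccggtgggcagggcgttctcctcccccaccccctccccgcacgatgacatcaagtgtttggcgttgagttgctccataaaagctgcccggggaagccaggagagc
CA9, chr9:35673678-35673927, plus strand: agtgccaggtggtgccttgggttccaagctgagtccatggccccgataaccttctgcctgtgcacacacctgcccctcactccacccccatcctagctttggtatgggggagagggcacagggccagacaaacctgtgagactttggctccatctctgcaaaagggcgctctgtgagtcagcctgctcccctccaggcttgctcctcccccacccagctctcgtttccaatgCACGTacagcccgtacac
PLIN2, chr9:19127493-19127742, minus strand: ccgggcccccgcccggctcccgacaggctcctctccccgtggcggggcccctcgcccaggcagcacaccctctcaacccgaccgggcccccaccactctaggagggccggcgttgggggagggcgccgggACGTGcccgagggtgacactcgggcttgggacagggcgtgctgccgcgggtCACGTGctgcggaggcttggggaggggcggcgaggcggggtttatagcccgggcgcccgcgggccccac
PGK1, chrX:78103998-78104247, plus strand: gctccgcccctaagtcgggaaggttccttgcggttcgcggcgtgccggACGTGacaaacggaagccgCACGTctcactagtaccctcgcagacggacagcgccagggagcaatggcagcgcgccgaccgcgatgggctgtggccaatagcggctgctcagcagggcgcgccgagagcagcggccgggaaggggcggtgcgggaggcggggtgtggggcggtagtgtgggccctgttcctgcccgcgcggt
LDHA, chr11:18394313-18394562, plus strand: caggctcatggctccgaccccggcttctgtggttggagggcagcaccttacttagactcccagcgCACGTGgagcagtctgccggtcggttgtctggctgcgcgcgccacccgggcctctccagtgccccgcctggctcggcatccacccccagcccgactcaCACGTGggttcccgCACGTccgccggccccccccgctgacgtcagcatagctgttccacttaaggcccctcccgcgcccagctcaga
The CA9 window, from a gene at a mean of 1.49 TPM, held 1 core that began 18 bases before the start. The CA12 window, from a gene at a mean of 237 TPM, held 0 in the form searched. PLIN2 held 3 cores, PGK1 2 and LDHA 5 in the window shown, where overlapping cores on both strands count separately. Another start of LDHA had a window with 0. A core in these letters is a description and not a bound site, and its absence from 250 bases says nothing of elements farther away. Only ACGTG was searched, so other forms of the core were not counted. Of 17 HIF-2 genes with a window 6 held the core (35.3%), and of 16 HIF-1 genes 13 (81.3%). Of all 15169 protein-coding genes with a window 3893 held it (25.7%). The palindrome CACGTG was in 2 of the HIF-2 genes (11.8%), 7 of the HIF-1 genes (43.75%) and 1496 of all genes (9.86%). Part of the HIF-1 share thus came from windows with the E-box. Some genes had more than 1 window, and a core in any of them counted.

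Each step from hexokinase to lactate dehydrogenase had an expressed gene. Of 47 genes of glycolysis and pyruvate handling 38 were expressed (80.9%, against 61.4% of protein-coding genes) and 18 reached 100 TPM (against 8.84%). The median of the 47 genes was 42.6 TPM. Together they held 25724 ± 626 TPM (SD, n = 3). GAPDH led, followed by PKM (pyruvate kinase M) at 3464, 3583 and 3745 TPM and by ALDOA, ENO1 and LDHA. TPI1 (triosephosphate isomerase) had 1442, 1480.4 and 1435 TPM and PGAM1 (phosphoglycerate mutase 1) 1064, 1095 and 1157 TPM. GPI (glucose-6-phosphate isomerase) was lower, with 152, 155 and 165 TPM. HK3, the hexokinase of blood cells, and PGK2, the phosphoglycerate kinase of testis, had 0 counts.

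In 12 of 29 gene families 1 member held at least 90% of the summed TPM, and in 28 the leading member exceeded the next in 3 of 3 libraries. The leader was chosen by its mean share over these same libraries, so the second count is a description and not a separate check. SLC2A1 held 96.3 ± 0.316% of 4 glucose transporters, ALDOA 99.8 ± 0.0245% of the aldolases, ENO1 94.8 ± 0.255% of the enolases and PKM 99.99 ± 0.00136% of the pyruvate kinases (SD, n = 3). PFKP, the platelet-type phosphofructokinase, held 80.5 ± 0.170%, with the liver type PFKL at 14.3 ± 0.177% and the muscle type PFKM at 5.18 ± 0.0406%. PFKFB3, which makes the activator of phosphofructokinase, held 77.5 ± 0.944% of its family. The hexokinases were divided. HKDC1, a hexokinase-like enzyme with a narrow tissue range, had 135, 120.2 and 132 TPM, against 106, 108 and 109.7 TPM for the widespread HK1. It exceeded HK1 by 1.11 to 1.27 times within a library. The HIF target HK2 had 25.0, 22.0 and 24.4 TPM. Lactate dehydrogenase was divided as well, with LDHA at 68.4 ± 1.01% and LDHB, at 989, 1009 and 976 TPM, holding the rest. SLC16A3, the lactate exporter MCT4, held 81.1 ± 1.56% of 4 monocarboxylate transporters and had 499.8, 493 and 425 TPM. It was lowest in control 3. PDK2 held 61.0 ± 2.23% of the pyruvate dehydrogenase kinases, ahead of PDK1 with 19.5 ± 1.86% and PDK3 with 16.4 ± 0.512%. Measured by counts without division by length, PDK3 held 40.5% and PDK2 34.6%, so this order depended on the scale.

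Gluconeogenic enzymes were mostly missing. Of 6 genes 2 were expressed (33.3%, against 61.4% of protein-coding genes). These were the mitochondrial PCK2, which makes phosphoenolpyruvate, at 155, 159.8 and 154 TPM, and pyruvate carboxylase (PC) at 21.1, 21.4 and 22.1 TPM. The cytosolic PCK1 and the glucose-6-phosphatase G6PC1 had 0 counts, which allows up to 0.175 TPM and 0.109 TPM in any library (3 counts). FBP1, the fructose-1,6-bisphosphatase whose loss is well known in clear cell renal carcinoma, had 1 count in control 3 and none in the others. FBP2, its muscle form, had 3 counts in control 1 and none in the others.

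**Figure D4:**
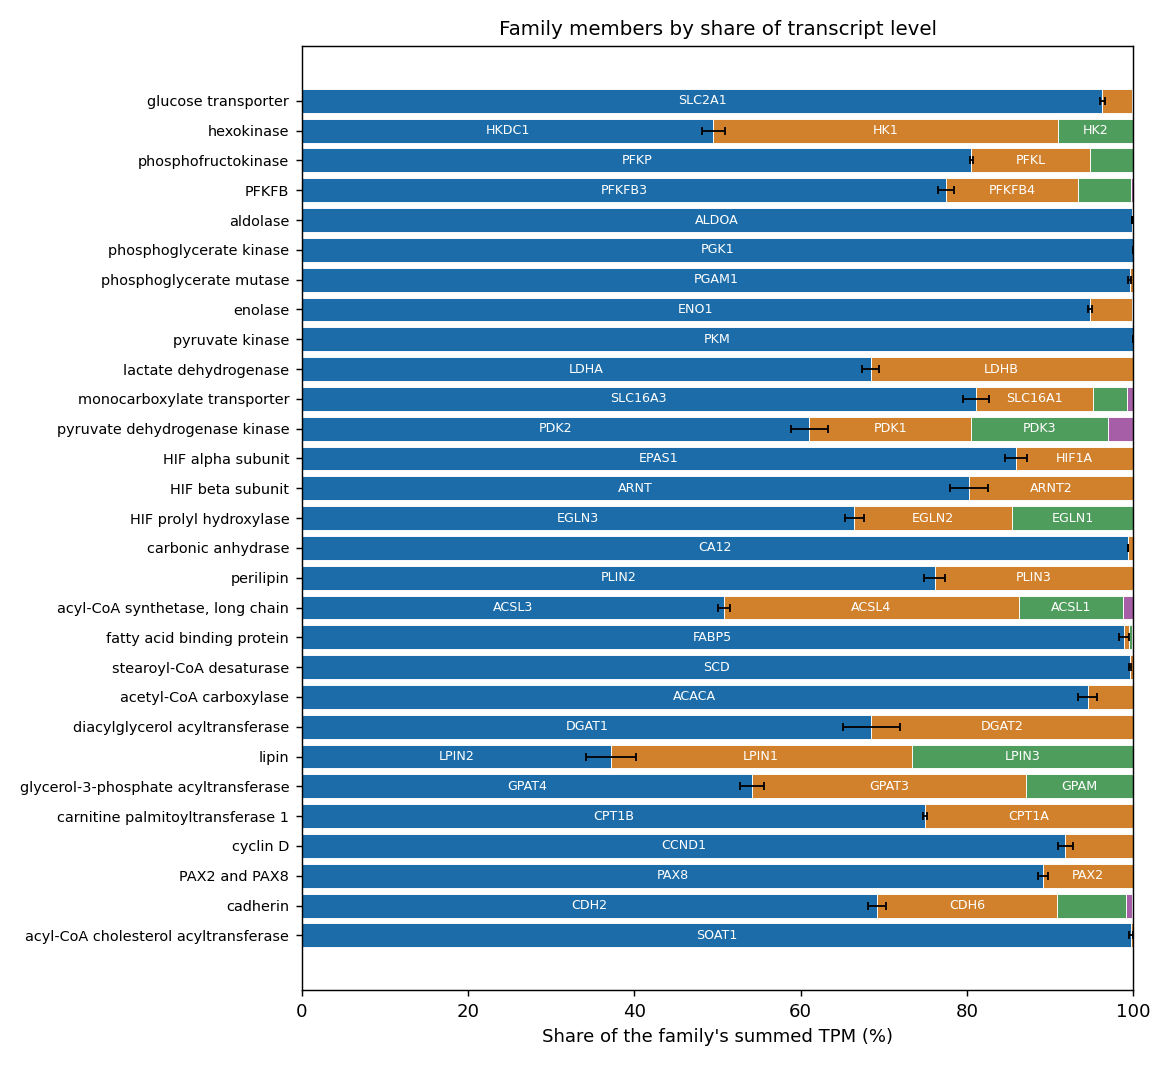
Share of the summed TPM of each of 29 gene families held by its members, as the mean over the 3 control libraries, with the SD of the leading member's share as an error bar and members ordered by share. SLC2A1, ALDOA and PKM fill nearly all of their bars, while HKDC1 and HK1, LDHA and LDHB, and the 3 lipins divide theirs.

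Lipid metabolism was covered by 6 lists with 113 different genes, of which 86 were expressed and 21 reached 100 TPM in each library. Of all protein-coding genes 61.4% were expressed and 8.84% reached 100 TPM in each library. Fatty acid synthesis had 16 of 20 genes expressed (80.0%). SCD, the desaturase that makes oleic acid, was highest with 559, 580.1 and 623 TPM and held 99.7 ± 0.141% of the pair SCD and SCD5. FADS2, a desaturase of polyunsaturated fatty acids, had 291, 298 and 299 TPM. ACLY, which makes cytosolic acetyl-CoA from citrate, had 221, 226 and 228 TPM. These 3 exceeded FASN, the fatty acid synthase, in every library, since FASN had 88.2, 91.0 and 102 TPM. ELOVL1, which lengthens saturated fatty acids, had 189.8, 207 and 203 TPM, and ELOVL5, which acts on polyunsaturated ones, 128, 133 and 129.8 TPM. ACACA held 94.5 ± 1.13% of the acetyl-CoA carboxylases with 29.1, 32.0 and 31.7 TPM. SREBF1, the transcription factor of the pathway, had 105, 105 and 116 TPM, while MLXIPL, its carbohydrate-responsive counterpart, had 8 counts and THRSP 2.

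Uptake, binding and activation of fatty acids had 11 of 22 genes expressed (50.0%), below the protein-coding background of 61.4%. SCARB1 was highest here. FABP5, a widespread fatty acid carrier, had 211, 207 and 201 TPM and held 98.8 ± 0.598% of 7 fatty acid binding proteins. FABP2, FABP4 and SLC27A6 had 0 counts, and CD36, the best known fatty acid receptor, had 5 counts in all. ACSL3, the acyl-CoA synthetase of lipid droplets, held 50.8 ± 0.746% of its family and ACSL4, which prefers polyunsaturated fatty acids, 35.5 ± 0.672%. The lipoprotein receptor VLDLR stood at 38.0, 39.5 and 41.9 TPM.

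Glycerolipid synthesis, the path to triglyceride, had 13 of 17 genes expressed (76.5%, against 61.4% of protein-coding genes). Of its genes 1 reached 100 TPM, against 8.84% of protein-coding genes. AGPAT2, which makes phosphatidic acid, had 169, 183 and 167 TPM. AGPAT1 and AGPAT3, of the same family, had 94.2, 88.5 and 94.5 TPM and 72.2, 68.0 and 72.1 TPM. These 3 exceeded every other member of the list in each library. GPAT4 led the initial acyltransferases with 26.8, 25.1 and 27.4 TPM and 54.2 ± 1.48% of the family. LPIN2 and LPIN1, phosphatases that make diacylglycerol, held 37.2 ± 2.98% and 36.2 ± 2.87%. LPIN2 was the higher in control 1 and control 2 and LPIN1 in control 3, so the 2 were not separated. DGAT1, which completes triglyceride and which the title of the series ties to JMJD6, had 21.1, 21.6 and 23.3 TPM. Its isoenzyme DGAT2 had 11.6, 9.37 and 9.45 TPM. DGAT1 was 1.82 to 2.47 times higher within a library and held 68.5 ± 3.48% of the pair, at a level above 48.4% of expressed genes. The monoacylglycerol acyltransferases MOGAT1, MOGAT2 and MOGAT3 and the testis form GPAT2 had 0 counts.

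Lipid droplet and lipolysis genes were expressed in 12 of 17 cases (70.6%, against 61.4% of protein-coding genes). PLIN2 held 76.1 ± 1.27% of the perilipins and PLIN3, at 160.1, 170.5 and 188 TPM, 23.8 ± 1.30%. PLIN1, the adipocyte form, had 28 counts and PLIN5, the form of oxidative tissues, 1. PLIN4 was not analysed here. Enzymes that break triglyceride down were present as well. MGLL, the monoglyceride lipase, had 258, 263 and 272 TPM, and PNPLA2 (ATGL), which takes the initial step, had 143, 138 and 143 TPM. LIPE, the hormone-sensitive lipase of fat cells, was close to the threshold with a mean of 1.21 ± 0.152 TPM (SD, n = 3). The ATGL inhibitors G0S2, with 88.5, 79.2 and 75.6 TPM, and HILPDA, a HIF target with 41.4, 44.7 and 38.9 TPM, were expressed too. The droplet-fusing genes CIDEA and CIDEC had 0 counts. BSCL2 (seipin) shares reads with a readthrough gene of 2505 counts, so its own level is uncertain.

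Fatty acid oxidation genes were expressed in 15 of 17 cases (88.2%, against 61.4% of protein-coding genes). In each library 3 reached 100 TPM (against 8.84%). HADHA, the alpha subunit of the mitochondrial trifunctional protein, had 176, 178 and 189.9 TPM. ACADVL, the dehydrogenase of very long acyl chains, had 158, 156 and 153 TPM, and the hydratase ECHS1 156, 150.4 and 147 TPM. The carnitine gate that admits fatty acids to mitochondria was lower. CPT1A, its usual form outside muscle, had 5.81, 5.02 and 6.58 TPM. CPT1B, the muscle form, had 17.5, 15.3 and 19.4 TPM, but a readthrough gene of 456 counts shares its reads. CPT1C and ACADL had 1 count each. Cholesterol synthesis and sterol sensing had 20 of 21 genes expressed (95.2%). FDPS (farnesyl diphosphate synthase) had 256, 266 and 247 TPM and the sterol sensor INSIG1 129, 150.2 and 152 TPM. SOAT1, which esterifies cholesterol for storage, had 49.9, 51.9 and 50.9 TPM and held 99.8 ± 0.219% of the pair with SOAT2.

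Among 31 tumour suppressors 29 were expressed (93.5%, against 61.4% of protein-coding genes), and the exceptions lie next to each other. CDKN2A, which encodes the cell cycle inhibitors p16 and ARF, had 0 counts in all 3 libraries, which allows up to 0.430 TPM in any of them (3 counts). CDKN2B, which encodes the related inhibitor p15, had 1 count in control 3. Both lie on chromosome 9. The protein-coding genes on either side of the pair had transcripts: MTAP, an enzyme of methionine salvage, had 25.5, 25.7 and 29.2 TPM, and DMRTA1 17.6, 16.1 and 15.3 TPM. KLHL9, among the interferon genes beyond MTAP, had 16.7, 17.3 and 16.4 TPM. The gene table (GRCh38.p14) was used for this order only. CDKN1A, the inhibitor p21, was by contrast the highest of the list with 682, 639 and 640.5 TPM. CDKN1B (p27) had 37.4, 42.4 and 37.0 TPM and CDKN2C (p18) 86.7, 109.8 and 86.9 TPM. RB1, the target of the cyclin D kinases, stood at 57.4, 57.3 and 58.4 TPM.

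Of the chromatin genes of chromosome 3p that clear cell renal carcinoma often loses along with VHL, BAP1, a deubiquitinase, had 71.9, 66.3 and 68.6 TPM. SETD2, the methyltransferase of histone H3 lysine 36, had 23.8, 23.7 and 26.2 TPM, and PBRM1, a subunit of the SWI/SNF remodeller PBAF, a mean of 13.8 ± 0.459 TPM (SD, n = 3). KDM5C, a demethylase on the X chromosome, had 43.9, 43.4 and 43.0 TPM. The Krebs cycle genes whose loss causes other renal tumours were higher, with FH (fumarase) at 137, 139.5 and 144 TPM and SDHB, a succinate dehydrogenase subunit, at 163, 165 and 163 TPM. An expressed transcript does not show an intact protein.

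Growth-promoting genes were expressed in 21 of 25 cases (84.0%, against 61.4% of protein-coding genes). CCND1 led and held 91.8 ± 0.877% of the D-type cyclins, while CCND2 had 2 counts in all. MET and AXL are given above. CDK4, the kinase partner of cyclin D, had 218, 206 and 199 TPM. EGFR, the receptor for TGFA, had 182, 175 and 188 TPM and MYC 157, 146 and 152 TPM. TERT, the catalytic subunit of telomerase, was low but present with 3.04, 2.37 and 2.80 TPM, and MYCN had 0 counts. All 16 proliferation genes were expressed and 13 of them reached 100 TPM, against 61.4% and 8.84% of protein-coding genes. PCNA, the sliding clamp of DNA replication, had 232, 226 and 231 TPM and the mitotic kinase PLK1 227, 227 and 220.0 TPM. Cytokines and growth factors were expressed in 24 of 25 cases (96.0%, against 61.4% of protein-coding genes), with VEGFA, IGFBP3 and TGFA among the highest. CSF1, the growth factor of macrophages, had 256, 254 and 293 TPM, and EREG, another ligand of the EGF receptor, 205, 207 and 196 TPM. The neutrophil attractant CXCL8 had 111, 90.4 and 96.7 TPM and IL6 61.2, 57.4 and 55.8 TPM. CXCL8 was highest in control 1. CCL20 was not expressed.

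Markers of other cell types were few, whereas 61.4% of protein-coding genes were expressed. Endothelial markers were expressed in 0 of 7 cases and held 3, 3 and 8 counts in control 1, 2 and 3, with VWF, CDH5, CLDN5 and EMCN at 0. Leukocyte markers were expressed in 2 of 10 cases. These were CD68, a lysosomal protein that many cell lines carry, with 65.3, 66.0 and 85.3 TPM, and CSF1R with 1.13, 1.25 and 1.16 TPM, while PTPRC (CD45), CD3E, CD3D and MS4A1 had 0 counts. Markers of liver, blood, muscle and pancreas were expressed in 0 of 10 cases, with 5 counts in all. Airway markers were expressed in 1 of 7 cases, SCGB1A1, a secretory protein of airway club cells, with 3.29, 3.14 and 21.1 TPM from 4, 4 and 24 counts. The list summed to 3.78, 7.93 and 28.1 TPM and was thus highest in control 3. Ribosomal RNA and replication-dependent histone genes have transcripts that lack poly(A) tails or are nearly identical copies. They were expressed in 7 of 11 cases (63.6%), a share close to the 61.4% of protein-coding genes. These 11 genes summed to 199, 250.3 and 214 TPM.

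Fibroblast and pericyte markers were expressed in 3 of 9 cases (33.3%, against 61.4% of protein-coding genes), and they separated control 1 from the others. Their sum was 64.8 TPM in control 1, 33.2 TPM in control 2 and 34.4 TPM in control 3, from 1363, 582 and 491 counts. COL1A2, a chain of type I collagen, had 298, 22 and 2 counts. DCN, the matrix proteoglycan decorin, had 154, 7 and 2 counts, and COL3A1 had 88, 5 and 1. LUM (lumican) had 18.5, 8.11 and 7.90 TPM. COL1A1 had 3.10, 1.31 and 0.967 TPM. All 5 were highest in control 1, but ACTA2 and RGS5, other expressed members, were at a similar level in all libraries, and POSTN held 5 counts. In bulk RNA, fewer cells of a type and less RNA per cell cannot be told apart, and the source of these transcripts was not tested.

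Across all genes the spread depended on the level. On the log2 scale of normalised counts (CPM) the pairs of libraries correlated at 0.992 to 0.993 across 13311 genes with a mean count of at least 10. Genes are not independent replicates, so this is a description. The chi-square per degree of freedom was 3.34 for control 1 and 2, 4.66 for control 1 and 3 and 4.96 for control 2 and 3, all above the value of about 1 that counting error alone would give. The biological coefficient of variation, the spread in excess of counting error, was 6.34% as a single value for all genes. When it was allowed to change with the count, its median was 20.6% at mean counts of 10 to 50. It was 12.1% at 50 to 200 and 4.69% above 5000. Spread fell with depth of counting. The median coefficient of variation was 26.4% at mean counts of 10 to 50, 12.2% at 50 to 200, 6.62% at 200 to 1000, 4.12% at 1000 to 5000 and 3.26% above. Counting error alone has an underlying coefficient of variation of 20.9%, 9.49%, 4.57%, 2.42% and 1.14% at these counts. Values taken from 3 libraries have a median below the underlying one. The excess over counting error is therefore larger than the gaps between these figures.

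The highest library exceeded the lowest by at least 1.5 times in 1608 of the 13311 genes (12.1%), most of them at low counts. Among 11528 genes with a mean count of at least 50, 480 did so, and 36 reached a ratio of 2 (0.312%). The 10 largest ratios in that set were headed by COL1A2, with normalised levels of 20.2, 1.44 and 0.143 CPM (counts scaled to library size). CHI3L1, a secreted glycoprotein of matrix remodelling, followed with 42.8, 2.75 and 0.501 CPM, and DCN with 10.4, 0.458 and 0.143 CPM. CEMIP, which degrades hyaluronan, had 10.7, 0.785 and 1.22 CPM. COL12A1, a collagen of dense connective tissue, had 19.7, 6.28 and 5.01 CPM, and COL1A1 9.20, 3.93 and 2.79 CPM. All 6 were highest in control 1. Among the others, CTBP1-AS, RHOU and GPR146 had ratios between 2.57 and 3.57 and no common order of the libraries. With 1 library left out, 939 genes reached the ratio of 1.5 without control 1, 891 without control 2 and 842 without control 3.

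**Figure D5:**
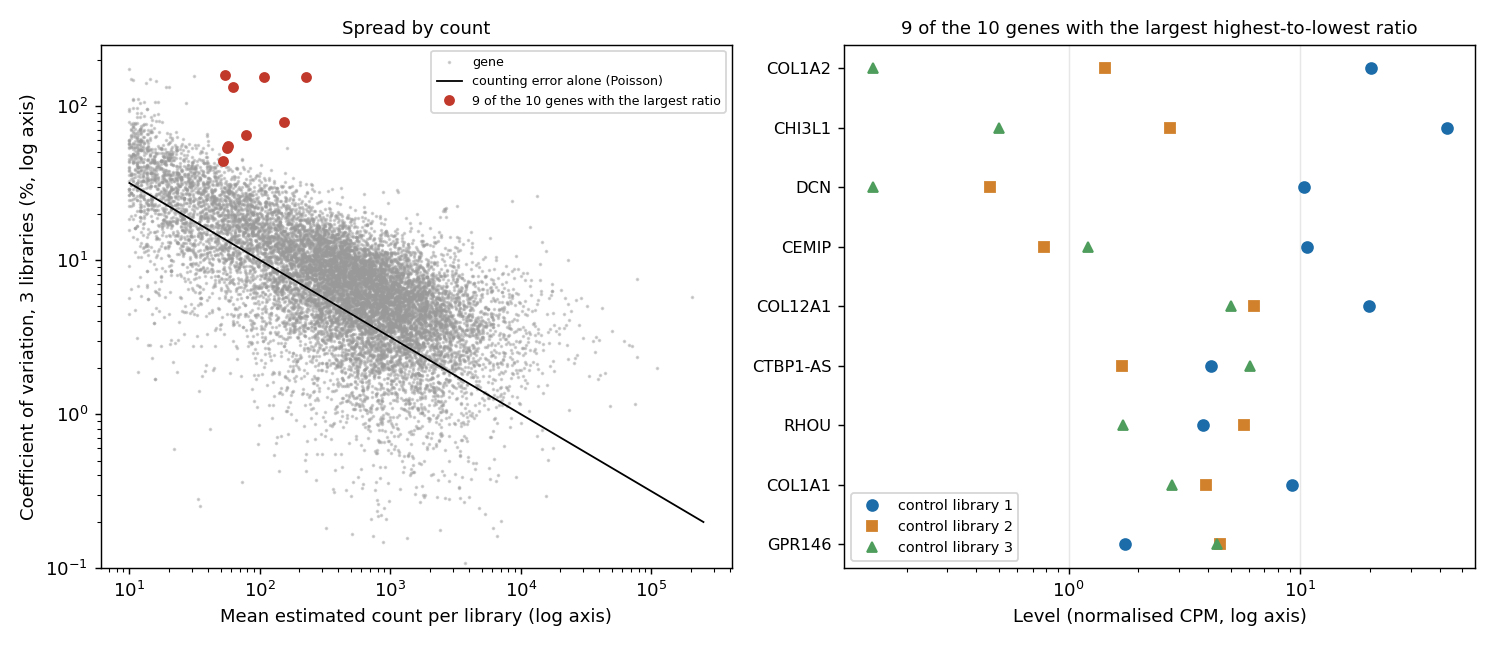
Left, the coefficient of variation over the 3 control libraries against the mean estimated count of each gene, both on log axes, with the line that counting error alone would give and 9 of the 10 genes with the largest highest-to-lowest ratio in red. Right, the normalised CPM of those 9 genes in each library on a log axis; COL1A2, CHI3L1, DCN, CEMIP, COL12A1 and COL1A1 are highest in control 1.

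Some of the spread went with transcript length. Genes were divided by transcript length into 10 equal groups. In the group with the shortest transcripts the median log2 difference of control 3 from the other libraries was −0.10, and in the group with the longest it was 0.08. Control 1 had 0.04 in the shortest group and −0.03 in the longest, and control 2 0.07 and −0.04. These were medians, and single genes went either way. The short transcripts TMSB10, RPL37A and SNHG5 were lowest in control 3, while the short transcripts RPS28 and RPS15 were highest there.

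Promoter letters also differed with level across the whole transcriptome. Windows were grouped by the mean TPM of their gene into 0, under 1, 1 to 10, 10 to 100, 100 to 1000 and at least 1000 TPM. The core ACGTG was present in 16.6%, 22.0%, 25.2%, 29.8%, 34.3% and 35.9% of the genes of these groups. The median number of CG steps per window was 4, 10, 18, 21, 22 and 20.5. The core itself holds a CG step, and its share went up together with CG content as far as 100 to 1000 TPM. In the last group the share was slightly higher (35.9% against 34.3%) while the CG median was lower (20.5 against 22). The letters TATAAA, the core of the TATA box, were searched on the gene's strand only. This search covered only the part of the window nearest the start. TATAAA showed another order, with 10.8%, 5.61%, 3.14%, 1.55%, 3.46% and 7.77%. They were thus most frequent at both ends of the scale. The last group held 103 genes. Among the HIF-2 genes, 6 of 17 held TATAAA (35.3%), and among the HIF-1 genes 1 of 16 (6.25%), against 680 of all 15169 genes with a window (4.48%). The 6 include CXCR4 and FLT1, which were not expressed.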

How the data were processed

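RNA-seq of 3 control-guide libraries was described. The deposited files give, per RefSeq transcript, the estimated count, TPM and effective length columns that Salmon writes, per the file headers. Every deposited estimated count was whole, by a step not given in the sources used here. TPM is Salmon's value per unit of effective length, with 1 total for all libraries, per the file headers. Also named in the submitters' processing notes are cutadapt 1.12, STAR 2.5.2b, hg19 and GRCh37, without their roles. The strand setting and the annotation are not given in the sources used here.

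Counts and TPM were summed per gene. Of 60422 accessions, 58031 (96.0%) matched the RefSeq gene table of GRCh38.p14, which gave names. The rest held 1.36% to 1.65% of a library's counts and 1.82% to 2.37% of its TPM, and they entered no gene value. Among them, the pair of noncoding transcripts with the most counts held 1.42%, 1.26% and 1.81% of the TPM (control 1, 2 and 3). Depth was 14224263 to 15549632 counts. Limits given for genes with 0 counts stand for 3 counts in a library and cover counting error only.

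Spread was estimated with edgeR 4.0.16 (R 4.3.3) in a fit with an intercept only and TMM normalisation, on genes with a mean count of at least 10, and it was checked on simulated data. Tables were made with Python 3.11.15 and pandas 2.3.3. With 1 group there was no contrast, and no p-value was computed. Promoter windows of 250 bases came from RefSeq.

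The genes, lists and families were chosen with earlier results of these data known. Genes were named as the 30 most abundant, the 5 highest members of a list and those with at most 3 counts in all, family members with at least 5% of its TPM, the 10 largest ratios between libraries at a mean count of at least 50, and a few fixed genes. Some genes of these rules are not reported here, and the counts of a list include them. Further members were named after their values were seen. Alternatives were other level thresholds, scalings, transcript classes and filters, and leaving out each library.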

Additional observations from a re-analysis of the deposited data

How the results depend on the processing

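The number of expressed genes ran from 11586 (coding transcripts only) to 13104 (threshold of 0.5 TPM), and that of list members from 303 (threshold of 2 TPM) to 336 (mean of at least 1 TPM) of 453. Rescaling TPM to named genes gave shares of 7.10%, 29.1% and 61.5% for the top 10, 100 and 1000 genes. Counts without division by length gave 5.76%, 17.7% and 48.7%, and coding transcripts only gave 58.8% for the top 1000. Of the genes tested for a ratio of 1.5 between libraries, 5361 reached it with no filter on counts and 479 at a mean count of at least 50, with normalisation refitted there. A ratio of 2 was reached by 600. Leaving out 1 library gave 842 to 939, where the highest and lowest came from fewer samples. The biological coefficient of variation was 5.14% to 6.97% with 1 library left out. LPIN1 led the lipins without control 1 (37.6% against 36.5% for LPIN2) or control 2 (36.2% against 36.1%). At a mean of at least 1 TPM, 6 fibroblast and 3 airway markers counted as expressed. Airway markers numbered 3 without control 1 and 0 at 1 CPM. At 2 TPM 1 distal tubule and 1 leukocyte gene were above the threshold, and with coding transcripts only 1 leukocyte gene and 4 of the rRNA and histone genes. CA12 stood at 200.2 TPM with coding transcripts only. No paired analysis was possible because only 1 group was described. With 3 libraries and no statement of separate cultures, the spread may be technical. Reads divided over near-identical transcripts, readthrough genes and overlapping genes limit single values, and genes with few counts are imprecise.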
